A study of Mus musculus with 52 samples.

Results

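The genes described here are the chemokine genes Cxcl9, Cxcl10, Cxcl11 and Cxcl16. They were taken from the count table by gene symbol, 4 of its 23135 gene lines, and followed across all 13 groups of the study. CXCL9, CXCL10 and CXCL11 are secreted chemokines that bind the receptor CXCR3 on effector T cells and NK cells, and their genes are classically induced by interferons and by Toll-like receptor signals through IRF and NF-kB transcription factors. CXCL16 is the ligand of CXCR6, is made as a membrane-bound protein with a chemokine domain on a stalk, and is released when metalloproteases such as ADAM10 cut it. Type 1 conventional dendritic cells (cDC1), which take up dead cells and present their antigens to CD8+ T cells, are a known source of CXCL9 and CXCL10 in tumours.

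The cells were CD103+ cDC1 sorted from C57BL/6 mouse bone marrow that had been cultured for 14 days with GM-CSF and FLT3 ligand, and RNA was counted by barcoded 3' sequencing with molecular identifiers. There were 52 libraries, 4 in each of 13 groups, lettered A to D as biological replicates. Prostaglandin E2 (PGE2) is a lipid mediator that many tumours make through the cyclooxygenases encoded by Ptgs1 and Ptgs2, and it acts on the receptors EP1 to EP4. The 4 h groups comprised untreated cells, cells given PGE2 at 100 ng/ml, cells given conditioned medium (CM) of BRAFV600E melanoma cells that make PGE2 (control CM), and cells given CM of Ptgs1/Ptgs2-/- BRAFV600E melanoma cells (Ptgs-deficient CM). In 5 further groups at 4 h an antagonist was added at 5 uM for 30 min before PGE2 at 100 ng/ml: SC-19220 against EP1, PF-04418948 against EP2, L-826,266 against EP3, L161,982 against EP4, and a combination named in the titles as EP2 plus EP4 antagonist. The treatment label of that combination names SC-19220 and L161,982, so whether its other compound was the EP1 or the EP2 antagonist is not settled by the labels, and the group is called here by its title. At 24 h the groups were untreated cells, cells given PGE2 at 100 ng/ml, cells given the TLR3 ligand poly I:C, a synthetic double-stranded RNA, at 10 ug/ml for the last 4 h, and cells given both PGE2 and poly I:C. The labels do not say whether the melanoma lines were single clones, and all groups share the same in vitro culture with GM-CSF.

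Cxcl9, Cxcl10 and Cxcl11 lie side by side on mouse chromosome 5, all on the minus strand, within 44139 bases (GRCm38, GENCODE M21). Cxcl9 spans chr5:92321347-92328079, Cxcl10 spans chr5:92346638-92348889 and Cxcl11 spans chr5:92359544-92365485. Cxcl16 lies apart from them at chr11:70453983-70459984, also on the minus strand. Cxcl11 is annotated as a polymorphic pseudogene in GENCODE and as a transcribed pseudogene in RefSeq, since the C57BL/6 allele carries a frameshift, so its counts measure a transcript and not a functional chemokine. Art3, on the opposite strand, runs across Cxcl10 and Cxcl11, and had 1 count in all 52 libraries. Gm2673, a processed pseudogene on the opposite strand, shares 1582 exon bases with Cxcl11 and has no line in the table. Its part in the Cxcl11 counts was not tested. Zmynd15, also on the opposite strand, overlaps the start of Cxcl16 by 552 bases. The labels do not state whether reads were counted by strand. In the 8 poly I:C libraries Zmynd15 held 180 counts against 5715 for Cxcl16.

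The 250 bases before the RefSeq start are shown for Cxcl9 and Cxcl10, the 2 of the 4 genes with a matched window, because these windows differ in what they hold (RefSeq, GRCm38.p6, minus strand, 5' to 3'). The capitals in the Cxcl10 window mark the interferon-stimulated response element (ISRE) core, read as GAAA, any 2 bases and GAAA, and matches to the NF-kB consensus. The Cxcl10 window is chr5:92348890-92349139 and the Cxcl9 window is chr5:92328080-92328329.
Cxcl10: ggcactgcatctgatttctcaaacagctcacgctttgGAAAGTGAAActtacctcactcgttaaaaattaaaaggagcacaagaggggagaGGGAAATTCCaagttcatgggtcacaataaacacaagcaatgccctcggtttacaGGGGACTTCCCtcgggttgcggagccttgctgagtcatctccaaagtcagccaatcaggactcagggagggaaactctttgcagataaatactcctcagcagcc
Cxcl9: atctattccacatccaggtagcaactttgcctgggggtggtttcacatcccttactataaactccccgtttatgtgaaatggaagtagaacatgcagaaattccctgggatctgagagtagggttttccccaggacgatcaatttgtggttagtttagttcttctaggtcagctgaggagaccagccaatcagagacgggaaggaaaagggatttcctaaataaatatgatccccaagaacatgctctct
The ISRE core stood 213 to 204 bases before the start of Cxcl10. An NF-kB consensus match stood at 159 to 150 bases, and 2 overlapping matches at 104 to 94 bases. The Cxcl9 window held no match, on either strand, to the ISRE core, the interferon gamma-activated sequence (TTCNNNGAA), the NF-kB consensus, the cAMP response element (TGACGTCA) or its shorter form (TGACG). Of 32851 promoter windows of the same length, 2.98% held the ISRE core, 7.25% the NF-kB consensus, 7.02% the gamma-activated sequence, 1.55% TGACGTCA and 17.8% TGACG. A match describes letters and not a bound site, and the absence of one says only that these letters were not in this window.

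Library totals ran from 42666 to 438491 counts with a median of 295484.5. Levels are given as CPM, the counts of a gene per 1000000 counts of its library, scaled by the trimmed mean of M-values (TMM). The scaling factor was 0.622 to 0.64 in the 8 poly I:C libraries and 1.01 to 1.21 in the other 44, so CPM of the poly I:C groups are raised by it. A count of 3 was worth 10.2 CPM at the median depth and 70.3 CPM in the shallowest library, library A of the EP4 antagonist group. All 8 listed cDC1 markers were present, with Irf8 at 4350 CPM, Naaa at 1180 CPM and Xcr1 at 255 CPM in untreated cells at 4 h. Their sum was 6656 to 7355 CPM in untreated and 3632 to 4242 CPM in PGE2 libraries at 4 h, and 6415 to 6857, 3847 to 4031 and 3717 to 4488 CPM in untreated, PGE2 and poly I:C libraries at 24 h, so it was lower with either agent, and its part in the chemokine results was not tested. The NK and T cell markers summed to at most 22.3 CPM in any library, and Nkg7 had no count at all. Of the macrophage markers, Adgre1, C1qa and Mertk had 8, 4 and 1 counts over all libraries, while Lyz2 (807 CPM) and Csf1r (214 CPM) were present in untreated cells at 4 h.

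Outside the poly I:C groups the CXCR3 ligands were close to the limit of detection, and Cxcl16 was not. Over the 44 libraries without poly I:C, Cxcl9 had 1 to 23 counts per library and group means of 15.7 to 65.3 CPM. Cxcl10 had 2 to 20 counts and group means of 18.2 to 54.5 CPM. Cxcl11 had 0 to 2 counts, with at least 1 count in 21 of the 44 libraries. The ranges of each of these 3 genes overlapped between every pair of neighbours in the order of these 11 group means. Cxcl16 had 13 to 214 counts per library and group means of 194 to 536 CPM, which left room to see differences among the unstimulated groups.

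**Figure D1:**
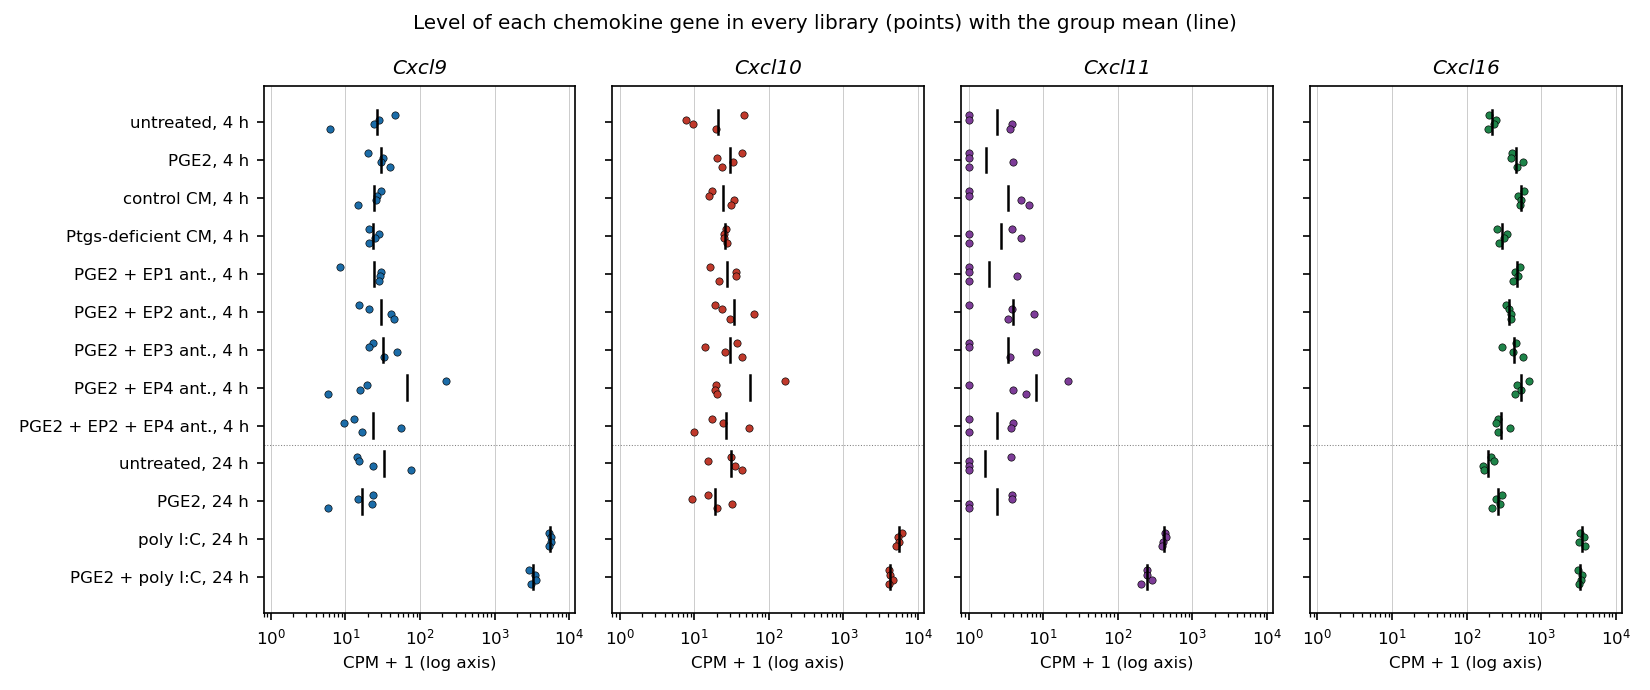
Level of Cxcl9, Cxcl10, Cxcl11 and Cxcl16 in all 52 libraries (points; CPM + 1 on a log axis) with the mean of each group (vertical line); the dotted line separates the 4 h from the 24 h groups. The 8 poly I:C libraries stand far to the right for all 4 genes, and among the 4 h groups only the points of Cxcl16 separate by treatment.

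Cxcl16 rose with PGE2 within 4 h. The 4 untreated libraries A to D held 199, 249, 236 and 194 CPM, and the 4 PGE2 libraries held 409, 394, 569 and 475 CPM. Every PGE2 library lay above every untreated library. The rise was 2.08-fold, a log2 fold change of 1.06 ± 0.16 (SE, n = 4 and 4, edgeR quasi-likelihood test, Benjamini-Hochberg adjusted p = 3.65e-08). In this comparison 8.57% of the 5754 genes tested were called at an adjusted p of at most 0.05. Neither Cxcl9, with a log2 fold change of 0.53 (95% interval -0.67 to 1.73), nor Cxcl10, with 1.01 (-0.07 to 2.10), was called. These intervals include both no change and a rise larger than that of Cxcl16, so a change of that size was not detectable at this depth. Cxcl11 had 1 count over the PGE2 group and 2 over the untreated group and was not tested.

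Cxcl16 was higher with control CM than with Ptgs-deficient CM. The control CM libraries held 595, 490, 536 and 512 CPM, and the Ptgs-deficient CM libraries held 253, 352, 316 and 267 CPM. The ranges did not overlap. The log2 fold change between the 2 media was 0.84 ± 0.14 (adjusted p = 7.06e-06, edgeR, n = 4 and 4), a comparison in which 3.86% of genes were called. Against untreated cells, control CM was 2.38-fold higher (log2 1.25 ± 0.16, adjusted p = 3.49e-11, 7.51% of genes called). Ptgs-deficient CM stood 1.33-fold above untreated cells, with all 4 libraries above all 4 untreated ones, but this was not called (log2 0.42, 95% interval 0.10 to 0.74, adjusted p = 0.503, 0.0869% of genes called). Control CM and pure PGE2 did not differ beyond the test (log2 0.20, interval -0.08 to 0.48, adjusted p = 0.94, 0.122% of genes called). The 3 comparisons with untreated cells share that group. Cxcl9 and Cxcl10 were called in none of these comparisons: Cxcl9 stood at 23.2 ± 6.57 CPM with control CM and 22.8 ± 3.61 CPM with Ptgs-deficient CM, and Cxcl10 at 23.5 ± 9.34 and 25.1 ± 1.11 CPM (SD, n = 4).

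Of the antagonists, the EP2 plus EP4 combination was the one with which Cxcl16 was called lower than with PGE2 alone. Its libraries held 267, 248, 380 and 261 CPM, all below the lowest PGE2 library, at 394 CPM. The log2 fold change was -0.69 ± 0.14 (adjusted p = 0.000132, edgeR, n = 4 and 4, 9.47% of genes called), a level 1.61-fold lower. It was not called against untreated cells (log2 0.36, interval 0.05 to 0.68, adjusted p = 0.337, 0.799% of genes called), where the lowest library of the combination (248 CPM) fell just within the untreated range. The summed macrophage and monocyte markers were 1251 to 1627 CPM with the combination, 883 to 1124 CPM with PGE2 alone and 868 to 1153 CPM with the EP4 antagonist, and the cDC1 markers 5451 to 5736, 3632 to 4242 and 3504 to 3977 CPM. Their part in the result was not tested.

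With a single antagonist, Cxcl16 was not called in any of the 4 comparisons with PGE2, which all share the PGE2 group. With the EP1 antagonist the libraries held 526, 439, 491 and 416 CPM and the log2 fold change was 0.00 (interval -0.28 to 0.29). No gene at all was called in that comparison by edgeR (0% of 5754, with 272 genes at an unadjusted p under 0.05; DESeq2 also called 0). With the EP3 antagonist they held 454, 302, 416 and 563 CPM (log2 -0.09, interval -0.37 to 0.19, 0.0869% of genes called). With the EP4 antagonist they held 690, 476, 530 and 448 CPM (log2 0.15, interval -0.14 to 0.44, 0.0348% of genes called), the 690 coming from 34 counts in the shallowest library. With the EP2 antagonist they held 335, 365, 394 and 390 CPM, a narrow range that touches the lowest PGE2 library (log2 -0.32, interval -0.61 to -0.04, adjusted p = 0.444, 0.417% of genes called).

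The antagonist groups were also set against each other. The combination was lower than the EP4 antagonist alone by a log2 fold change of -0.84 ± 0.15 (adjusted p = 7.24e-06, 5.49% of genes called), with all 4 libraries below all 4. Against the EP2 antagonist alone the difference was -0.37 (interval -0.65 to -0.09, adjusted p = 0.191, 2.16% of genes called). The EP2 antagonist group was lower than the EP4 antagonist group by -0.47 (interval -0.76 to -0.18), which was not called (adjusted p = 0.472, 0.0174% of genes called) although no library of one group reached the other. Cxcl9 and Cxcl10 were called in none of the 14 comparisons at 4 h. Their highest 4 h values, 223 CPM for Cxcl9 and 162 CPM for Cxcl10, came from 11 and 8 counts in library A of the EP4 antagonist group; its other 3 libraries held 4.82 to 18.3 CPM and 17.9 to 19.3 CPM.

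**Figure D2:**
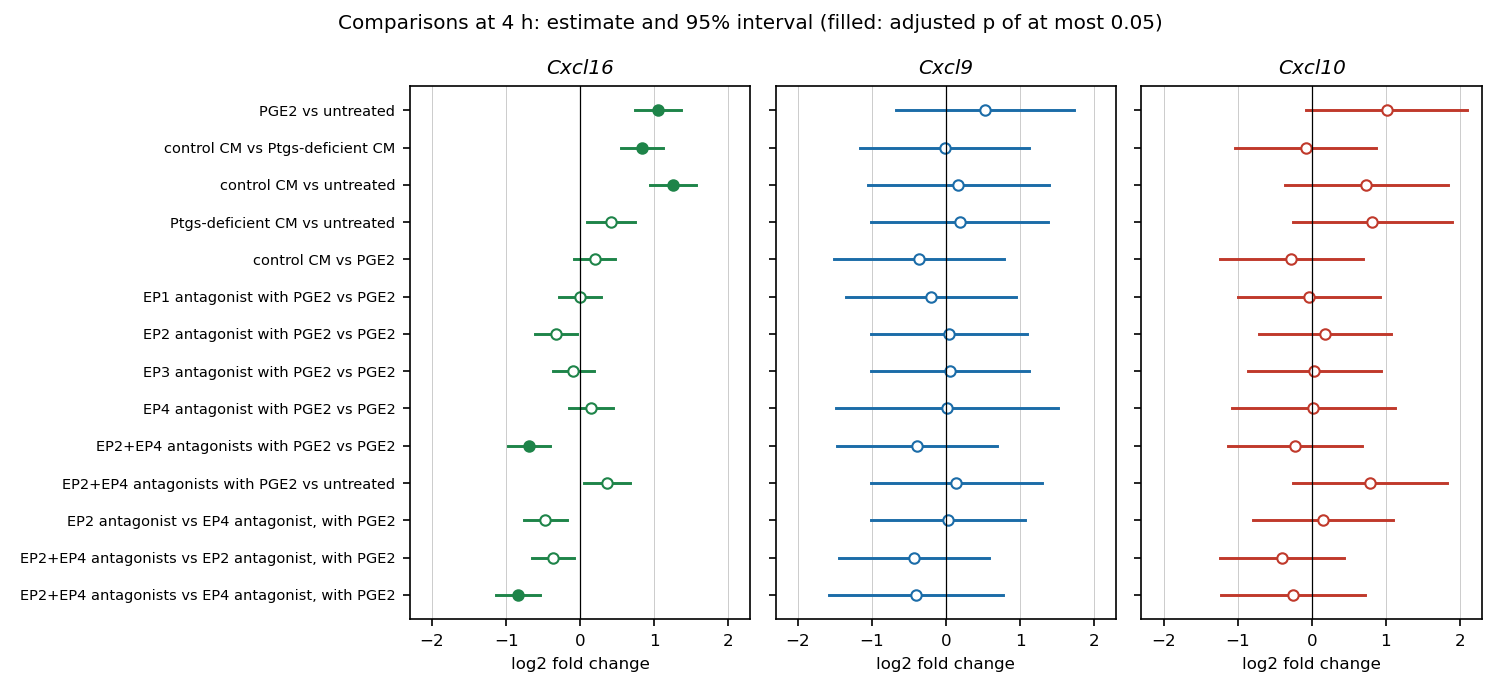
Log2 fold change (circle) and 95% interval (line) of Cxcl16, Cxcl9 and Cxcl10 in the 14 comparisons at 4 h; filled circles have an adjusted p of at most 0.05. Cxcl16 is called in 5 of the 14 comparisons with short intervals, while every interval of Cxcl9 and Cxcl10 includes 0 and is wider than those of Cxcl16.

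In the full order of Cxcl16 means, the 2 poly I:C groups stood first, without overlap with the next group. They were followed by the EP4 antagonist (536 ± 108 CPM), control CM (533 ± 45.1), EP1 antagonist (468 ± 49.7), PGE2 at 4 h (462 ± 79.6), EP3 antagonist (434 ± 108) and EP2 antagonist (371 ± 27.3). Below these came Ptgs-deficient CM (297 ± 45.5), the EP2 plus EP4 combination (289 ± 61.0), PGE2 at 24 h (260 ± 35.8), untreated cells at 4 h (219 ± 27.2) and untreated cells at 24 h (194 ± 31.6 CPM, SD, n = 4 each). Each of these groups overlapped its neighbours in the order, so the order shows a gradient and not separate classes.

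After 24 h of PGE2, Cxcl16 was higher than in untreated cells by a smaller amount. The untreated libraries held 213, 229, 163 and 172 CPM and the PGE2 libraries 298, 245, 278 and 217 CPM. Of the PGE2 libraries, 3 of 4 lay above all untreated ones. The log2 fold change was 0.46 ± 0.13 (adjusted p = 0.0143, edgeR, n = 4 and 4, 8.06% of genes called), and the call was lost without untreated library C (0.37, adjusted p = 0.102), without untreated library D (0.40, adjusted p = 0.0538) or without PGE2 library A (0.38, adjusted p = 0.104). The summed macrophage and monocyte markers, 9 of 10 of them in the table, also differed between these groups: 1137 to 1587 CPM in untreated and 1745 to 2087 CPM in PGE2 libraries, mostly Lyz2, with Adgre1, C1qa and Mertk at or near 0. The cDC2 markers were 69.3 to 104 and 127 to 174 CPM, and the cDC1 markers lower with PGE2, as given above. Their part in the result was not tested. Fewer cells of a type and less RNA per cell cannot be told apart in these bulk libraries. Zmynd15, which overlaps Cxcl16, stood at 5.81 ± 0.536 CPM in untreated and 26.9 ± 9.57 CPM in PGE2 libraries at 24 h (SD, n = 4). These came from 8 and 35 counts, and at 4 h it held 5 and 12 counts in the same 2 treatments. Whether shared reads had a part in the Cxcl16 values was not tested.

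Between the times, Cxcl16 fell in PGE2-treated cells, by 0.82 ± 0.14 on the log2 scale from 4 h to 24 h (adjusted p = 1.91e-06, 13.8% of 5403 genes called). In the same PGE2 libraries the summed macrophage and monocyte markers were 883 to 1124 CPM at 4 h and 1745 to 2087 CPM at 24 h, and the cDC2 markers 47.0 to 106 and 127 to 174 CPM, and their part in the result was not tested. In untreated cells the difference was -0.20 (interval -0.52 to 0.12, adjusted p = 0.625, 4.33% of genes called). The difference between the 2 PGE2 effects, -0.62 ± 0.22, was not called (adjusted p = 0.0846, 4.37% of genes called). Time in culture and any difference in preparation between the 4 h and 24 h sets cannot be told apart. Cxcl10 was not called in any of these 3 comparisons, at log2 1.05 in untreated cells, -0.69 with PGE2 and -1.73 for the difference (adjusted p = 0.294, 0.419 and 0.183). Cxcl9 did not pass the filter on low counts there, and exact permutation tests gave p = 0.829 in untreated and 0.0857 in PGE2-treated cells (n = 4 and 4, two-sided; adjusted 0.829 and 0.428; 0.0286 is the smallest p this design allows). At 24 h without poly I:C, PGE2 called neither Cxcl10 (log2 -0.71, interval -1.37 to -0.05, adjusted p = 0.274) nor Cxcl9 (-0.78, interval -1.72 to 0.15, adjusted p = 0.382). The interval of Cxcl10 leaves out 0 although its unadjusted edgeR p was 0.0531, so it is narrower than the test allows. For Cxcl9 this value rested on untreated library D, without which it was 0.03 (adjusted p = 0.982).

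Poly I:C raised all 4 genes. Cxcl10 had 11, 5, 12 and 13 counts in the untreated libraries at 24 h and 1060, 982, 1193 and 1144 counts after poly I:C, or 6099, 5444, 5582 and 5124 CPM. Its rise was 174-fold (log2 7.44 ± 0.14, adjusted p = 1.05e-111), rank 11 by fold change and rank 4 by p among 5273 genes. Cxcl9 had 5, 5, 8 and 23 counts in untreated libraries and 935, 1015, 1203 and 1193 after poly I:C, or 5380, 5627, 5629 and 5344 CPM. The 4 poly I:C values lay close together, whereas untreated library D stood far above the other untreated ones. The rise of Cxcl9 was 171-fold (log2 7.42 ± 0.19, adjusted p = 9.88e-27), and 8.25 on the log2 scale without untreated library D.

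Cxcl11 went from 1 count over the 4 untreated libraries to 75, 80, 87 and 88 counts, or 432, 444, 407 and 394 CPM. The ratio of the rates was 577, with a 95% counting interval of 103 to 22870. Cxcl16 went from 194 ± 31.6 CPM to 3268, 3770, 3261 and 3901 CPM, a 17.1-fold rise (log2 4.10 ± 0.11, adjusted p = 9.71e-87). In this comparison 65% of the 5273 genes were called, and 16.2% were called higher with a log2 fold change of at least 1.5, the size the labels give for the study's own calls. Cxcl10 and Cxcl16 met both rules. Cxcl9 and Cxcl11 passed the filter on low counts at 24 h only through the poly I:C groups, so that they had to differ here, and their calls are not counted. No member tested at 4 h met the size rule there. Scaled by library totals alone, the log2 fold changes were 6.70 for Cxcl9, 6.73 for Cxcl10 and 3.38 for Cxcl16, and the median of all genes moved from -0.10 to -0.82. Zmynd15, the neighbour that overlaps Cxcl16, stood at 5.81 ± 0.536 CPM in untreated and 96.7 ± 10.9 CPM in poly I:C libraries (SD, n = 4). The part of shared reads was not tested.

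The lists of upstream and co-induced genes moved in the same comparison, in which 65% of all 5273 genes were called. Of all genes tested, 1646 rose and 1783 fell. Of 20 interferon-stimulated genes, 17 were tested, but only 7 of these passed the filter on low counts without the poly I:C libraries. All 7 rose, and the others had to differ here. The leading ones by p among the 17 were Oasl1 (7.29), Ifit1 (7.89), Rsad2 (8.18) and Cmpk2 (7.11). Of these, Ifit1, Rsad2 and Cmpk2 held 11, 8 and 13 counts over the untreated group and passed only through the poly I:C groups. The 17 genes ranged from 2.12 to 8.18. Cxcl10 (7.44) lay above Oasl1 and below only Ifit1 and Rsad2, which passed only through the poly I:C groups. Cxcl9 passed only through those groups as well, so its place in this range is not read. Of the NF-kB subunits and inhibitors, 8 passed without the poly I:C libraries and all 8 rose. The other 2 passed only through the poly I:C groups and had to differ, so their rise is not counted. Nfkbia, an inhibitor that NF-kB itself induces, rose by 4.33, Relb by 5.12, Nfkbib by 3.69 and Nfkb2 by 3.99. Of 17 tested genes of TLR3 signalling and interferon induction, 11 rose and 4 fell. Among the 14 that passed the filter without the poly I:C libraries, 8 rose and 4 fell. Scaled by library totals alone, 9 of the 17 rose and 6 fell. Irf7 (6.51), the cytosolic RNA sensor gene Ifih1 (6.56) and Irf1 (3.01) were among those that rose. Irf7 and Ifih1 held 27 and 17 counts over the untreated group and passed only through the poly I:C groups. Of the receptors and proteases that act on these chemokines, Adam10, the protease that sheds CXCL16, fell from 56.4 to 27.4 CPM (log2 -1.08 ± 0.39, adjusted p = 0.0117), on 76 and 22 counts. Ifnb1, named after its counts were seen, had 0, 5, 6 and 0 counts in the 4 poly I:C libraries and none in the other 48.

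With PGE2 and poly I:C, all 3 CXCR3 ligand genes were lower than with poly I:C alone, and Cxcl16 was not called. In the libraries with PGE2 and poly I:C, Cxcl9 held 2926, 3493, 3606 and 3061 CPM. Those with poly I:C alone held 5380, 5627, 5629 and 5344 CPM. The highest library with PGE2 was far below the lowest without. Cxcl9 was 1.68-fold lower (log2 -0.75 ± 0.12, adjusted p = 1.56e-05, edgeR, n = 4 and 4). In this comparison 10.7% of the 5273 genes were called.

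Cxcl10 stood at 4087, 4248, 4665 and 4075 CPM with PGE2 and at 6099, 5444, 5582 and 5124 CPM without. The groups did not overlap, and the difference was 1.30-fold (log2 -0.38 ± 0.08, adjusted p = 0.000336). Cxcl11 stood at 245, 245, 289 and 201 CPM with PGE2 and at 432, 444, 407 and 394 CPM without, a 1.72-fold lower level (log2 -0.78 ± 0.18, adjusted p = 0.000428), again without overlap. Cxcl16 stood at 3131, 3471, 3405 and 3262 CPM with PGE2 and at 3268, 3770, 3261 and 3901 CPM without. These ranges overlapped, and the log2 difference of -0.10 (interval -0.27 to 0.08) was not called (adjusted p = 0.583).

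**Figure D3:**
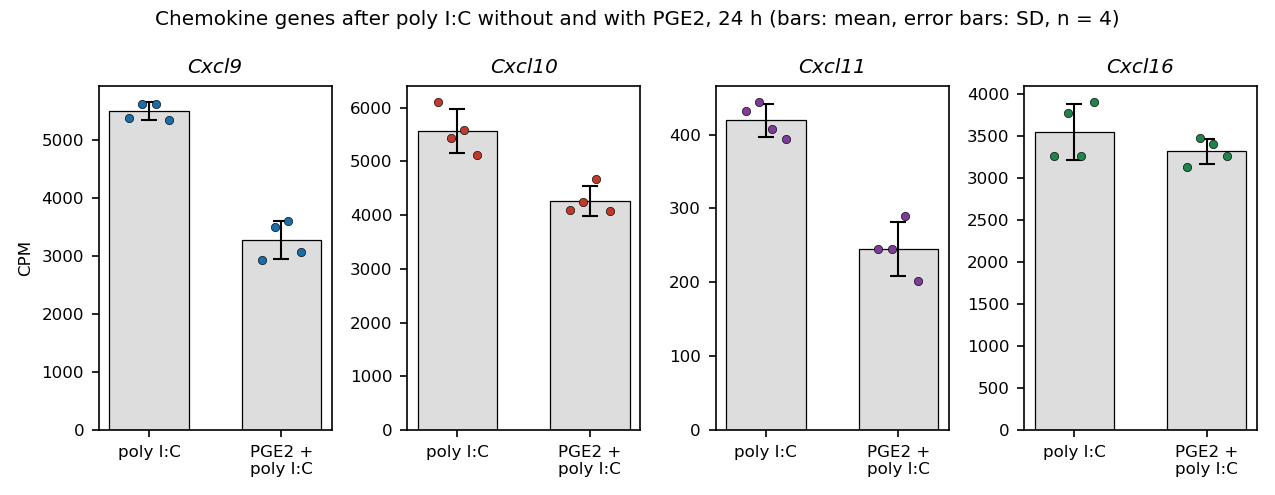
CPM of the 4 genes after poly I:C alone and after PGE2 with poly I:C at 24 h (bars are means, error bars SD, points the 4 libraries of each group; axes start at 0). The points of Cxcl9, Cxcl10 and Cxcl11 do not overlap between the groups, and those of Cxcl16 do.

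Ratios taken within each library, which do not depend on scaling, differed between the groups as well. Per Cxcl10 count there were 0.882 to 1.04 Cxcl9 counts in the poly I:C libraries and 0.716 to 0.822 in those with PGE2, without overlap. For Cxcl11 the ratio was 0.0708 to 0.0815 against 0.0494 to 0.062, again without overlap. For Cxcl16 it was 0.536 to 0.761 against 0.73 to 0.817, which overlapped. Within the poly I:C response, Cxcl9 and Cxcl11 therefore stood lower relative to Cxcl10 in every library that had received PGE2. These ratios describe the libraries and were not tested.

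Against PGE2 alone at 24 h, Cxcl10 was 218-fold higher with PGE2 and poly I:C (log2 7.77 ± 0.16, edgeR adjusted p = 7.69e-107). Cxcl16 was 11.7-fold higher (3.55 ± 0.11, adjusted p = 1.99e-78), and 64.8% of genes were called. Cxcl9 was 176-fold higher (7.46 ± 0.22). It passed the filter on low counts only through the poly I:C groups and had to differ here, so its call is not counted. For Cxcl11 the ratio of rates was 150 (counting interval 41.1 to 1249), from 2 to 211 counts. The interaction asks whether PGE2 changed the fold response to poly I:C. It was called for Cxcl16 (log2 -0.55 ± 0.16, adjusted p = 0.0275, 3.34% of genes called), whose fold response was smaller after PGE2, and this call did not hold without single libraries. It was lost without untreated library C or D, PGE2 library A or C, poly I:C library B or D, or PGE2 with poly I:C library A or D, with estimates of -0.64 to -0.47 and adjusted p up to 0.116. For Cxcl9 (0.04, interval -0.67 to 0.75) and Cxcl10 (0.33, interval -0.34 to 1.00) it was not called (adjusted p = 0.981 and 0.76), and both intervals are wide because the levels without poly I:C rest on few counts.

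Around the 3 lower chemokine genes, the interferon-stimulated genes went both ways when PGE2 was present. Of the 17 tested, 3 were higher and 6 lower with PGE2 and poly I:C than with poly I:C alone, with a median of -0.19 against -0.01 over all genes. Over all 5273 genes tested, 10.7% were called, 265 higher and 298 lower. Those with the smallest p were the GTPase gene Gbp2 (0.91 ± 0.10, higher), Ifit3 (1.12 ± 0.12, higher), the antiviral gene Rsad2 (-0.99 ± 0.11, lower) and its neighbour Cmpk2 (-0.69 ± 0.11, lower), with adjusted p from 3.2e-15 to 3.75e-07. The log2 differences of Cxcl9 and Cxcl11 lay between those of Cmpk2 and Rsad2. Of 17 genes of TLR3 signalling and interferon induction, Ifih1 was lower (-0.58 ± 0.11) and Jak2 (0.70 ± 0.15), Irf8 (0.34 ± 0.08) and Irf7 (0.31 ± 0.10) were higher. Of the 10 NF-kB subunits and inhibitors, 4 were higher and none was lower: Nfkbia (0.59 ± 0.08), Rel (0.59 ± 0.15), Relb (0.34 ± 0.10) and Nfkbie (0.44 ± 0.15), the last not called by DESeq2 (adjusted p = 0.111) or with library totals alone (0.0619).

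Dpp4 encodes the peptidase that trims the N-terminus of CXCL9, CXCL10 and CXCL11 and so weakens their action on CXCR3. It had 4, 2, 3 and 9 counts after poly I:C and 32, 15, 21 and 23 counts with PGE2 and poly I:C, or 22.1 ± 13.2 against 107 ± 39.3 CPM (SD, n = 4). The groups did not overlap, and the log2 fold change was 2.19 ± 0.39 (adjusted p = 4.6e-06). Without poly I:C, at 24 h, Dpp4 stood at 27.6 ± 18.6 CPM in untreated and 49.8 ± 12.9 CPM in PGE2 libraries and was not called. Of 11 other CXC chemokine genes, 7 had a line in the table and none passed the filter on low counts. Among them, named after their counts were seen, the CXCR2 ligand genes Cxcl2 and Cxcl3 had no count in the 4 poly I:C libraries, and 4, 2, 1 and 12 counts (Cxcl2) and 0, 1, 8 and 3 counts (Cxcl3) with PGE2 and poly I:C. Cxcr3 itself had 29 counts in the group titled EP2 plus EP4 antagonist with PGE2 (5 to 10 per library) and 18 in untreated cells at 4 h (1 to 7 per library). It had 6 and 8 counts in the control and Ptgs-deficient CM groups and at most 8 in each of the other groups. Markers of other cells moved between the 2 poly I:C groups too: the summed macrophage markers were 493 to 682 CPM without and 429 to 486 CPM with PGE2, and the 5 cDC2 markers, all in the table, 11.1 to 28.1 and 47.3 to 55.8 CPM, with Mgl2 at 0. The 4 plasmacytoid dendritic cell markers summed to 618 to 802 and 867 to 1211 CPM, nearly all of it Bst2, with Siglech at 1.12 and 1.36 CPM. The 8 cDC1 markers summed to 3717 to 4488 CPM without and 4037 to 4724 CPM with PGE2, most of it Irf8, and went both ways. In group means, Irf8 (3120 without, 3940 with PGE2), Batf3 (119, 132) and Clec9a (13.7, 16.6) were higher with PGE2. Xcr1 (191, 81), Naaa (215, 127), Cadm1 (104, 60.2), Wdfy4 (124, 82.9) and Itgae (109, 90.3) were lower. The part of all these markers in the chemokine differences was not tested.

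At 4 h, with PGE2, 4 of 9 tested NF-kB subunits and inhibitors rose and none fell (median 0.84 against -0.01 over all genes), led by Nfkbie (2.12), Nfkbia (0.84), Nfkb2 (1.48) and Relb (1.54). With the EP2 plus EP4 combination against PGE2, 5 of 9 were lower and none higher (median -0.84), or 4 lower when scaled by library totals alone. With control CM against untreated cells, where Cxcl16 was also called, 4 of the 9 were higher and none lower (median 0.69, 7.51% of all genes called). With control against Ptgs-deficient CM, none of the 9 was called (median 0.42, range 0.21 to 1.11). Only 3.86% of all genes were called there, so no call among 9 genes is not a result about them. Of 20 interferon-stimulated genes 7 were tested. With PGE2, Mx1 was the 1 called, lower by a log2 fold change of -1.78 (adjusted p = 0.0207), against 8.57% of all genes called. With the combination against PGE2, 2 of the 7 were lower and none higher (median -0.45), against 9.47% of all genes called. Ifngr1, a chain of the interferon gamma receptor, rose by 1.17 with PGE2, and Irf8 fell by 0.79 on the log2 scale.

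The genes most like each chemokine gene in their group means, by Pearson r of the mean log2 CPM (edgeR, prior count of 2) over the 13 groups among 6479 other genes, are given next. These r describe 13 means that are split by poly I:C into 2 and 11, which nearly fixes them. Cxcl9 was closest to Cxcl10 (r = 0.998), then Txndc17, Casp4, Oasl1 and Cxcl11. Cxcl10 was closest to Cxcl9, Icam1, Oasl1, Txndc17 and Akr1a1, and Cxcl11 to Gca, Cxcl9, Ifi47, Klf6 and Cxcl10. Cxcl16 was closest to Cdkn1a (r = 0.992), which stood at 407 CPM in untreated cells and 1040 CPM with PGE2 at 4 h, and then to Gnb4, Cd274, Cd83 and Rab10. Over the 9 groups at 4 h alone, Cxcl16 was closest to Klrb1b (r = 0.978), Adssl1, Sdcbp2, Cd83 and Csf2rb2. Cd83, a surface marker of mature dendritic cells, was in both lists, with 73.6 CPM in untreated cells, 265 CPM with PGE2 at 4 h, 4680 CPM with poly I:C and 6700 CPM with PGE2 and poly I:C. Between the chemokine genes themselves, Cxcl16 had r of 0.945 to 0.948 with the CXCR3 ligands over 13 groups, lower than the 0.994 to 0.998 among these. Over the 9 groups at 4 h, Cxcl16 had r of 0.359 to 0.696 with them. Among the ligands r was then 0.436 to 0.706, so Cxcl16 did not stand apart there.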

How the data were processed

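Sequencing was barcoded 3' RNA sequencing with unique molecular identifiers, made into a table with the Drop-seq pipeline against GRCm38 with Ensembl release 75, per the labels' protocols; DESeq2 1.14.1 is named in the submitters' processing notes. The deposited values are raw counts of molecules per gene in 52 libraries, as the authors deposited them. Of 23136 lines, 1 text entry was left out; 20 symbols turned to dates held 0.105% of counts. Sets of libraries were fitted separately with edgeR 4.0.16 (R 4.3.3): 36 at 4 h (5754 genes after the filter on low counts), 16 at 24 h (5273) and 16 between times (5403), with TMM scaling, a robust quasi-likelihood test and p-values adjusted by the Benjamini-Hochberg method across every gene in the fit, called at 0.05. Genes below the filter had exact permutation tests on log2(CPM + 1), unless both groups held 3 counts or fewer. Intervals are at 95%. They and the SE were built from the fold change and its F statistic, and for genes with few counts they can be narrower than the test allows. Counting intervals cover counting error only.

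The tests were checked on simulated counts. Replicates carry the letters A to D as biological replicates; nothing says that they came from separate mice, so p-values measure the spread between these cultures. Replicate pairs differed by more than sampling noise (chi-square per degree of freedom 1.38 to 2.7 over 78 pairs). The members and gene lists were chosen with earlier results of these data known. Named genes were the 4 members, up to 4 genes per list with the smallest adjusted p in a comparison, and the 5 genes most like each member. An item of these lists is not reported here by name. Alternatives were DESeq2 1.42.0, library totals alone, upper-quartile scaling, no filter, other sets of libraries in the fit, the replicate letter as a block, leaving out libraries under 100000 counts and leaving out each library in turn. Promoter windows came from RefSeq and coordinates from GENCODE M21, with a RefSeq window for 2 of the 4 members.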

Additional observations from a re-analysis of the deposited data

Results flagged for a closer look

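In 6 of 41 groups examined, 1 library stood apart from the other 3 by a gap above Dixon's 95% critical value; chance gives this in about 1 in 20 groups. Cxcl9 in library A of the EP1 antagonist group stood at 7.51 CPM, from 1 count, with the others at 27.3 to 29.1 CPM. In library A of the EP4 antagonist group, the shallowest of all with 42666 counts, Cxcl9 stood at 223 CPM (others 4.82 to 18.3) and Cxcl10 at 162 CPM (others 17.9 to 19.3). In library C of the EP2 plus EP4 group, Cxcl9 stood at 53.9 CPM (others 8.66 to 15.9) and Cxcl16 at 380 CPM (others 248 to 267). Cxcl9 in untreated library D at 24 h stood at 75.9 CPM, from 23 counts, with the others at 13.5 to 22.5 CPM. The effect of PGE2 on Cxcl16 differed between cells without and with poly I:C by a log2 value of -0.55 (interaction in edgeR, adjusted p = 0.0275).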

How the results depend on the processing

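Of 64 results for the 4 genes, 62 kept their side of the threshold under every alternative that gave a value. Of 947 alternative values, 933 kept that side and none reversed a call. Most of the 64 were not called (16 for Cxcl9, 19 for Cxcl10 and 12 for Cxcl16). Many of these rest on few counts and lie far from the threshold, so they could hardly change. The results that did change were both calls of Cxcl16, which had 6 calls higher and 4 lower. The totals therefore say little of how stable the calls are. The 64 include the rises of Cxcl9 with poly I:C, against untreated cells and against PGE2 alone. These had to differ through the filter, so that they kept their calls says nothing of their stability. For Cxcl16 with PGE2 against untreated at 24 h, without the filter the log2 value was 0.42 (adjusted p = 0.156), with the fit limited to the 2 groups 0.43 (adjusted p = 0.0503), and without single libraries 0.37 to 0.54 (adjusted p up to 0.104). For the Cxcl16 interaction it was -0.50 without the filter (adjusted p = 0.337; 0.0141 to 0.337 over all alternatives) and -0.64 to -0.47 without single libraries. Causes were not tested. The replicate letters did not pair the libraries (correlations of deviations from group means -0.066 to 0.059, over 0.1 for every letter in 0 of 20 comparisons). With the replicate block no call for the 4 genes changed, for example Cxcl16 with PGE2 at 4 h at 1.05, and 2 of 22 counts of called genes moved by over 1.5 times.

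Counts of called genes that moved by over 1.5 times ranged, over the alternatives, from 138 to 307 for control against Ptgs-deficient CM (222 reported), 0 to 10 for Ptgs-deficient CM against untreated (5), 2 to 23 for control CM against PGE2 (7), 7 to 82 for the EP2 antagonist against PGE2 (24), 0 to 9 for EP3 (5), 0 to 3 for EP4 (2), 21 to 74 for the combination against untreated (46), 0 to 9 for EP2 against EP4 antagonist (1), 74 to 185 for the combination against EP2 (124), 205 to 354 against EP4 (316), 81 to 198 for the interaction (176), 151 to 245 for untreated cells between times (234) and 129 to 257 for the PGE2 effect between times (236). No 24 h library had fewer than 100000 counts, so leaving out shallow libraries gave no value there. Depth limits Cxcl9, Cxcl10 and Cxcl11 outside the poly I:C groups, where 3 counts are worth 6.84 to 70.3 CPM.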
